A study of Rattus norvegicus with 25 samples.

Results

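Striatal RNA was compared across all genes between rats on trapidil at 15 mg/kg BID and rats on trapidil at 7.5 mg/kg BID, both on top of levodopa. Libraries were assigned by the dose in their titles, which placed 10 libraries in each arm, 20 of the 25 in the series. All animals were female Sprague Dawley rats lesioned with 6-hydroxydopamine, a toxin that kills dopamine neurons and so models the dopamine loss of Parkinson's disease. The age of the animals was not given in the sources used here. All arms, including the remaining one of 5 animals on levodopa alone, received levodopa at 6 mg/kg QD. No unlesioned or undosed group was used here, so every difference below is between doses of trapidil on a shared background of lesion and levodopa. Dosing lasted 14 days, and the striatum on the lesioned side was taken on day 15, at 1 hour from a dose, whether before or after it not being given in the sources used here. A single time point and whole tissue limit what the comparison shows: fewer cells of a type and less RNA per cell cannot be told apart.

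Trapidil blocks the action of platelet-derived growth factor (PDGF) and inhibits phosphodiesterases, the enzymes that break down cyclic AMP and cyclic GMP. In spiny projection neurons, the output neurons of the striatum, dopamine acts through D1 receptors that raise cyclic AMP and D2 receptors that lower it, and cyclic AMP acts through protein kinase A and the transcription factor CREB. In the lesioned striatum levodopa drives this pathway and the MAP kinases ERK1/2 strongly. Immediate early genes such as Fos, Arc and Egr1 are transcribed shortly after such stimulation, and products of Fosb build up in striatal neurons with repeated levodopa.

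Total gene counts ran from 10838513 to 18794463 at 7.5 mg/kg (median 16617608) and from 13862132 to 20532290 at 15 mg/kg (median 18792032), a difference of means of 1941555 that did not pass a two-sided permutation test (p = 0.0776). Mitochondrial genes took 12.1 ± 1.74% and 12.2 ± 0.739% of counts (SD, n = 10 each; permutation p = 0.947). Markers of spiny projection neurons were present in every library: all 22 on the list were tested, and their summed level ran from 16748 to 20977 CPM at 7.5 mg/kg and from 16374 to 20409 CPM at 15 mg/kg. CPM here are library-scaled counts, as edgeR computes them.

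The libraries of 7.5 mg/kg replicates 1 and 6 stood apart from the other 18 trapidil libraries. On the first principal component of the 20 libraries, which held 28.4% of the variance, they lay at -50.9 and -46.2, while the other 18 lay between -12.7 and 22.8. On that of all 25 libraries they lay at -38.4 and -42.5, with levodopa replicates 1, 2, 3 and 5 at -31.8, -19.8, -33.6 and -32.8. Levodopa replicate 4 lay at 14.0. Slc17a7, the vesicular glutamate transporter of cortical neurons, was at 46.1 and 29.6 CPM in replicates 1 and 6 and between 1.74 and 4.36 CPM in the other 18 libraries. Of the 16 cortical and hippocampal markers in the table, 5 were higher in both replicates than in any of the other 18 libraries. Among them were Slc17a7 and the cortical transcription factors Neurod6, Neurod2 and Tbr1. In both replicates 10 of the 16 lay above the median of the other 18, while Rorb, Fezf2 and Bhlhe22 lay below it. Values above all other 18 were not particular to cortical markers, since Gfap, Agt and Cd74 of other lists had them too. The share of all genes with such values was not counted. The summed level of the cortical and hippocampal list, led by Nrgn, which the striatum also expresses, was 4238 and 4588 CPM in replicates 1 and 6. The median of the 7.5 mg/kg arm was 3349 CPM and that of the 15 mg/kg arm 3585 CPM. Levodopa libraries ran from 3004 to 4614.5 CPM. Neurod2 had no read in 12 of the 18. Values without replicates 1 and 6 are given beside results below. The cortical score used in some fits, a mean of z-scored log2 CPM, covered the 11 members tested, without Neurod6, Neurod2 and Tbr1. It was 0.84 in replicate 1 but -0.05 in replicate 6, near the 7.5 mg/kg median of -0.09. Those fits therefore cannot decide the part of cortical tissue in the results, which was not tested.

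The first question was how many genes distinguished the doses. Of 14142 genes tested, 4 were higher at 15 than at 7.5 mg/kg (0.0283% of genes) and 0 were lower (0%) by edgeR's quasi-likelihood test at an adjusted p of 0.05. The 4 were Midn, Per1, Irs2 and Zfp189. DESeq2 called 6 genes higher and 0 lower, and limma-voom 12 higher and 1 lower. At an unadjusted p under 0.05 there were 211 higher genes (1.49%) and 302 lower genes (2.14%), 513 in all, fewer than the 707.1 that a level of 0.05 gives with no difference between arms and independent genes. The median log2 fold change of all genes was -0.0024, with 48.8% positive. The 95% confidence interval of the fold change lay within 1.5-fold either way for 12187 genes (86.2%) and within 2-fold for 13617 (96.3%). This is the precision the fit gave, its spread being estimated from all 25 libraries.

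**Figure D1:**
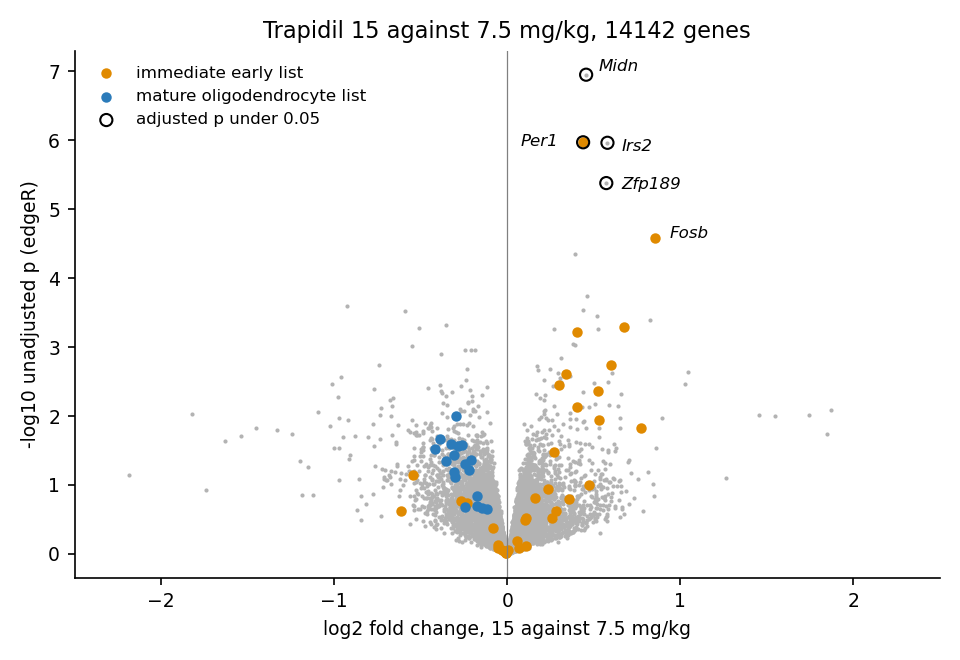
Each point is 1 of 14142 genes. The x axis is the log2 fold change of 15 against 7.5 mg/kg and the y axis -log10 of the unadjusted edgeR p. The 4 circled genes passed at an adjusted p of 0.05, all on the higher side. Immediate early genes (orange) lie on both sides with 24 of 35 positive, and mature oligodendrocyte genes (blue) lie on the lower side.

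Midn encodes midnolin, a nuclear protein that carries other proteins, products of immediate early genes among them, to the proteasome without ubiquitin. It ran from 61.9 to 89.1 CPM at 7.5 mg/kg (median 70.1) and from 87.2 to 109.5 CPM at 15 mg/kg (median 95.6). The arms overlapped through 7.5 mg/kg replicate 1 alone; the next highest animal of that arm was at 77.7 CPM, below every animal of the higher dose. Midn rose 1.37-fold, a log2 fold change of 0.46 ± 0.06 (SE; edgeR adjusted p = 0.00158). Without replicates 1 and 6 it was 0.50 ± 0.06 (adjusted p = 0.000145).

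Per1 encodes a repressor of the circadian clock that is also transcribed quickly after cyclic AMP and glucocorticoid signals. It ran from 107.4 to 139 CPM at 7.5 mg/kg (median 116) and from 131 to 184 CPM at 15 mg/kg (median 158). All but replicate 10 of the higher-dose animals lay above the highest animal of the lower dose. Per1 rose 1.36-fold (log2 0.44 ± 0.07; edgeR adjusted p = 0.00512), and the value without replicates 1 and 6 was 0.42 ± 0.08 (adjusted p = 0.0313).

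Irs2, an adaptor that links the insulin and IGF-1 receptors to PI3 kinase, ran from 69.2 to 114 CPM at 7.5 mg/kg (median 78.7) and from 99.4 to 156 CPM at 15 mg/kg (median 124). Again the overlap came from 7.5 mg/kg replicate 1, since the next animal of that arm, at 99.1 CPM, lay just under the lowest of the higher dose. Irs2 rose 1.49-fold (log2 0.58 ± 0.09; edgeR adjusted p = 0.00512), or 0.61 ± 0.09 without replicates 1 and 6 (adjusted p = 0.00198).

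Zfp189, which encodes a zinc finger transcription factor, ran from 28.5 to 38.1 CPM at 7.5 mg/kg (median 33.5) and from 33.1 to 61.9 CPM at 15 mg/kg (median 51.9). Here 15 mg/kg replicate 10 lay inside the lower arm and the other 9 animals lay above it. Zfp189 rose 1.49-fold (log2 0.57 ± 0.10; edgeR adjusted p = 0.0147), or 0.58 ± 0.11 without replicates 1 and 6 (adjusted p = 0.0349). The same 15 mg/kg animal, replicate 10, was the lowest of its arm for all 4 genes, and replicate 8 the highest for Per1, Irs2 and Zfp189.

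**Figure D2:**
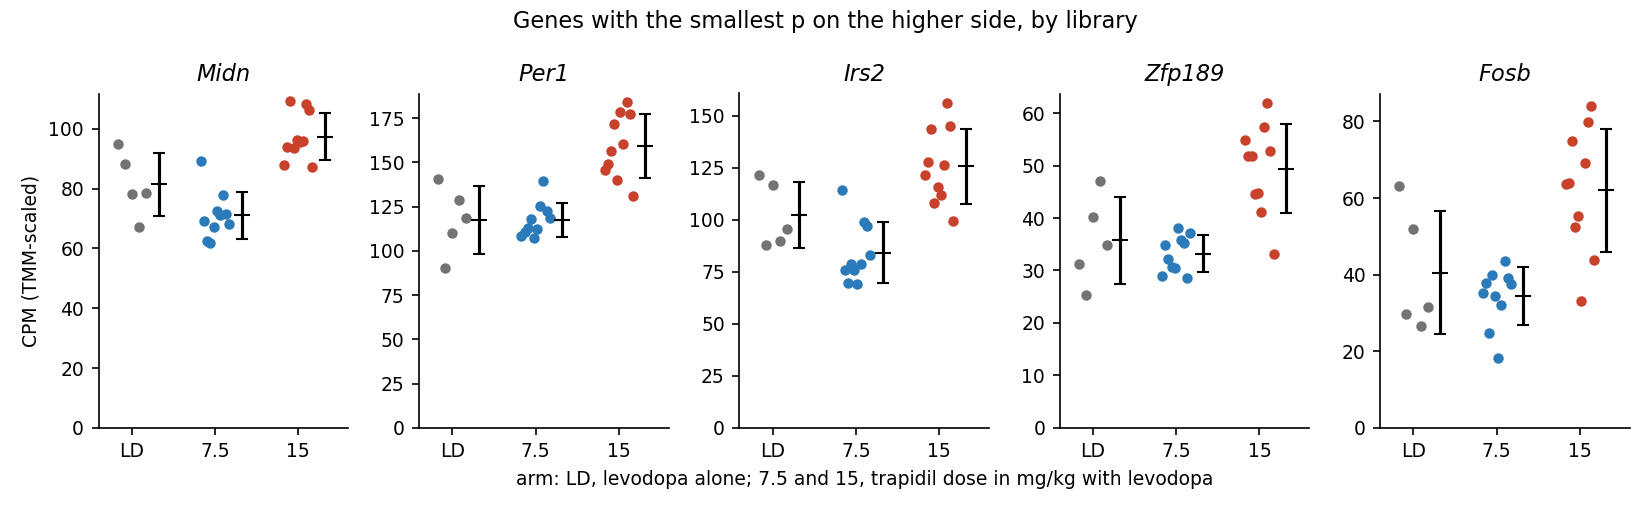
CPM of the 4 genes that passed and of Fosb in each library (points), by arm on the x axis, with the mean and SD of each arm beside them. At 15 mg/kg 8, 9, 7, 9 and 9 of 10 animals lay above the highest 7.5 mg/kg animal for Midn, Per1, Irs2, Zfp189 and Fosb. The levodopa animals of each gene reach into the ranges of both doses.

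For Midn, Irs2 and Zfp189 the levodopa mean lay between those of the 2 doses. The 2 comparisons with levodopa use the same 5 animals and share the trapidil animals with the comparison of doses, so the values below are side by side and not independent. At 7.5 mg/kg against levodopa none of the 4 was among the 4 genes called in that comparison (0.0283%), and at 15 mg/kg Per1 was the 1 called (185 genes, 1.31%). Midn averaged 81.4 ± 10.6 CPM on levodopa (SD, n = 5), 71.1 ± 7.87 at 7.5 mg/kg and 97.4 ± 7.96 at 15 mg/kg (SD, n = 10 each). Its log2 differences from levodopa were -0.20 ± 0.08 (edgeR adjusted p = 0.355) and 0.26 ± 0.08 (adjusted p = 0.0775). Irs2 had the same order, 102 ± 15.7, 84.2 ± 14.7 and 126 ± 18.0 CPM, with -0.28 ± 0.11 and 0.30 ± 0.11 (adjusted p = 0.355 and 0.151). Neither gene passed against levodopa at either dose, while both passed between the doses. Per1 was level with levodopa at the lower dose (117.7 ± 19.2 and 117.7 ± 9.68 CPM) and at 159 ± 18.0 CPM at the higher one, 0.44 ± 0.09 above levodopa (adjusted p = 0.0217). Zfp189 averaged 35.8 ± 8.28, 33.2 ± 3.49 and 49.4 ± 8.52 CPM, with 0.46 ± 0.12 at 15 mg/kg against levodopa (adjusted p = 0.0537).

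Fosb, which encodes a partner of Jun in AP-1, came next in order of p and did not pass. It ran from 18.3 to 43.6 CPM at 7.5 mg/kg (median 36.4) and from 33.0 to 84.0 CPM at 15 mg/kg (median 63.8), with 9 of 10 higher-dose animals above the whole lower arm. Its log2 fold change was the largest of the 35 immediate early genes, 0.85 ± 0.17 (edgeR adjusted p = 0.0728). DESeq2 (adjusted p = 0.00887) and limma-voom (adjusted p = 0.0125) called it, and so did edgeR with only the trapidil arms in the fit (adjusted p = 0.0215). Without replicates 1 and 6 it was 0.78 ± 0.17 (edgeR adjusted p = 0.133).

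Nr4a1, an orphan nuclear receptor induced by dopamine receptor signals, ran from 71.8 to 240 CPM at 7.5 mg/kg (median 117) and from 151 to 251 CPM at 15 mg/kg (median 191). A single animal, 7.5 mg/kg replicate 1, made the arms overlap; the next highest of its arm was at 144 CPM. The log2 fold change was 0.68 ± 0.17 (edgeR adjusted p = 0.460), without replicate 1 it was 0.84 ± 0.15 (adjusted p = 0.0142), and without replicates 1 and 6 it was 0.79 ± 0.15 (adjusted p = 0.0384). Leaving out the highest animal of the lower arm by itself raises the difference. Of the 25 fits that each left out 1 library, 1 called Nr4a1, and the largest edgeR adjusted p among them was 0.978. Egr1, an immediate early zinc finger factor, ran from 187 to 326 CPM (median 285) and from 253 to 484 CPM (median 345), with 0.40 ± 0.14 (adjusted p = 0.999), or 0.39 ± 0.15 without the pair.

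Arc, Fos and Npas4 did not separate the doses. Arc, whose product acts on synaptic AMPA receptors, ran from 56.4 to 597 CPM (median 158) at 7.5 mg/kg and from 117 to 272 CPM (median 192) at 15 mg/kg, with -0.01 ± 0.28 (95% interval -0.59 to 0.57). The highest value again belonged to 7.5 mg/kg replicate 1, whose absence turned the sign, to 0.35 ± 0.22. Fos was at 4.10 to 63.2 CPM (median 12.3) and 7.63 to 29.4 CPM (median 16.8), with 0.11 ± 0.36. Its highest value was also that of 7.5 mg/kg replicate 1, without which it was at 0.60 ± 0.29 (adjusted p = 1.00), and without replicates 1 and 6 it was at 0.54 ± 0.29. Npas4, a neuron-specific activity factor, had the opposite sign at -0.54 ± 0.29, ran from 6.38 to 29.3 CPM (median 20.4) and from 2.72 to 25.0 CPM (median 15.1), and was below the lower-dose median in 9 of 10 higher-dose animals. Without the pair Arc was at 0.32 ± 0.23 and Npas4 at -0.53 ± 0.31. None of these 3 passed in all libraries (adjusted p = 0.999 each).

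As a group, immediate early genes leaned to the higher side at 15 mg/kg. Of 35 tested, 24 had a positive log2 fold change, as did 48.8% of all genes, with a median of 0.16 beside -0.0024 for all genes. Per1 passed, and an unadjusted p under 0.05 was reached by 12 on the higher side and 0 on the lower (1.49% and 2.14% of all genes). These were Fosb, Egr2, Nr4a1, Nr4a3, Junb, Egr4, Per1, Egr1, Sik1, Egr3, Cebpb and Ier5. Their values ranged from 0.27 ± 0.12 for Ier5 to 0.85 ± 0.17 for Fosb, while Jun (-0.27 ± 0.19) and Atf3 (-0.62 ± 0.51) were negative. Without 7.5 mg/kg replicates 1 and 6 the median was 0.34, with 31 of 35 positive, and without replicate 1 alone it was also 0.34. The list score, a mean of z-scored log2 CPM, lay above the 7.5 mg/kg median in 9 of 10 higher-dose animals. Like the lists below, this one was chosen with earlier results of these data known. Its counts therefore describe the members and are no independent evidence on the group.

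Genes known to be induced through CREB often carry the cyclic AMP response element TGACGTCA, or its core TGACG, near their start. The promoters of 4 list members are printed to show these letters in place. None of the 4 passed between the doses in the reported edgeR fit. With 4 region scores in the design edgeR called Egr4 (adjusted p = 0.0257), and limma-voom called Cebpb (adjusted p = 0.0486). RefSeq windows of 250 bases before the gene start (build GRCr8) were searched for TGACG on both strands, a full element counting as a core on each strand. A core was found in 3256 of 19622 such windows (16.6%) and the full element in 279 (1.42%). For 14 immediate early genes with a window at the outer end of the gene, 10 held a core (71.4%) and 4 the full element (28.57%). The 4 with the full element did not lie on the higher side together: Ier2 was at -0.23 ± 0.17, Jund at -0.08 ± 0.10, Btg2 at -0.05 ± 0.22 and Maff at 0.07 ± 0.29. The 6 with the core alone were Fosl1 at 0.06 ± 0.13, Nfil3 at 0.11 ± 0.10, Cebpb at 0.30 ± 0.09, Egr1 at 0.40 ± 0.14, Egr4 at 0.53 ± 0.17 and Junb at 0.53 ± 0.20. The 4 with neither were Gadd45g at -0.05 ± 0.16, Zfp36 at 0.24 ± 0.14, Ier5 at 0.27 ± 0.12 and Fosl2 at 0.47 ± 0.28. Among these 14, members with and without a core thus lay both near 0 and above it. No gene called between the doses in the reported fit was among the 14, and neither were Fosb and Nr4a1. The windows therefore leave out the members with the clearest differences, and the part of the element in the results was not tested. The 4 windows below were chosen after their values were seen, 5′ to 3′ with the elements in capitals, from chr4:119607818-119608067 (minus strand), chr3:176816755-176817004 (plus), chr13:48087691-48087940 (minus) and chr19:40399123-40399372 (plus). A match is a description of letters and not a bound site.
Egr4: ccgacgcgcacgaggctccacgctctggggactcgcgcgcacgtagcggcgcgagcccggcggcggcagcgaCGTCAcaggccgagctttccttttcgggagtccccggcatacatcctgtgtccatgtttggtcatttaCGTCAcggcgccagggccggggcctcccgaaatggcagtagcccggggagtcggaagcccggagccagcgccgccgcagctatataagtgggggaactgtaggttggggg
Cebpb: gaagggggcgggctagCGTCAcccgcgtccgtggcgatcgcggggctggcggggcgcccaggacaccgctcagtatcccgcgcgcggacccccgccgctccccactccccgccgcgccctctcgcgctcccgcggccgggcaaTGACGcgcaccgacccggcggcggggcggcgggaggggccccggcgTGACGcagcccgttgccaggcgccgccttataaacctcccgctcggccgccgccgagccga
Btg2: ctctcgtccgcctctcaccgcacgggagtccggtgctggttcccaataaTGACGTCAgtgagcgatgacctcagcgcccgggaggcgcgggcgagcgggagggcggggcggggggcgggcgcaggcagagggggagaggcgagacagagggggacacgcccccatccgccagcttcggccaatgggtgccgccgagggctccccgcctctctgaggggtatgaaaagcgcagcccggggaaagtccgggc
Ier2: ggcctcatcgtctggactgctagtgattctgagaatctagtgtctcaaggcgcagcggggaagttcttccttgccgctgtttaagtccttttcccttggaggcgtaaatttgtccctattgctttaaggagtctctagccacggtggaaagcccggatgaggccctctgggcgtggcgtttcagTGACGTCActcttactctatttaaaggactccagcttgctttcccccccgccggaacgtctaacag

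Genes of MAP kinase feedback, which are induced by ERK and in turn restrain it, also lay mostly above 0. Of 21 tested, 16 were positive with a median of 0.14, and 0 passed in the reported edgeR fit, with DESeq2 or with limma-voom. An unadjusted p under 0.05 was reached by 6 members, all higher (1.49% of all genes were higher at this level). Dusp5, a nuclear phosphatase of ERK, ran from 4.15 to 12.7 CPM at 7.5 mg/kg (median 7.46) and from 6.44 to 14.8 CPM at 15 mg/kg (median 13.9), with 0.82 ± 0.20 (adjusted p = 0.460). Dusp4 was at 0.50 ± 0.16, Phlda1 at 0.38 ± 0.10 and Errfi1, an inhibitor of the EGF receptor, at 0.18 ± 0.07. Spry4, an inhibitor of receptor signals to ERK, was at 0.29 ± 0.10, and Etv5, an ERK-dependent ETS factor, at 0.17 ± 0.07 (edgeR adjusted p = 0.999 each). Dusp1 was at 0.34 ± 0.25, Dusp6 at 0.10 ± 0.15 and Dusp2 at -0.23 ± 0.25, all with an interval that held 0. Replicate 1 of the lower dose held the highest Dusp1 and Dusp6 of its arm, 112 and 28.2 CPM, and without it they were at 0.65 ± 0.19 (adjusted p = 0.719) and 0.21 ± 0.13. Without replicates 1 and 6 they were at 0.65 ± 0.20 and 0.24 ± 0.13, and the list had 16 of 21 positive and a median of 0.13. The later activity genes (Vgf, Homer1, Ptgs2 and others) had 15 of 19 positive and a median of 0.11 (16 and 0.08 without the pair), with 2 higher at an unadjusted p under 0.05, Gpr3 (0.44 ± 0.15) and Cdkn1a (0.35 ± 0.15).

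Per1 belongs to more than 1 list, and the other members of those lists were read beside it. Of 19 clock genes Per1 was the 1 that passed, and the intervals of all 19 lay within 1.5-fold. The other core clock genes were close to 0: Per2 at 0.08 ± 0.08, Cry1 at 0.05 ± 0.07, Nr1d1 at -0.02 ± 0.07, Dbp at -0.00 ± 0.06 and Arntl, which encodes BMAL1, at 0.10 ± 0.06. Of 19 genes that respond to glucocorticoids, 8 were higher and 1 lower at an unadjusted p under 0.05 (1.49% and 2.14% of all genes). The list median was 0.06, or 0.10 without the pair (14 and 12 of 19 positive). Those higher were Per1, Nfkbia, Pdk4, Mt2A, Sgk1, Cdkn1a, Ddit4 and Errfi1, and Zbtb16 (-0.44 ± 0.21) was lower. Fkbp5, a chaperone of the glucocorticoid receptor and a widely used marker of its activity, was at 0.04 ± 0.05, and Tsc22d3, which encodes GILZ, at 0.02 ± 0.09. In the reported edgeR fit Per1 alone of the 19 passed. Limma-voom also called Nfkbia (adjusted p = 0.00934), as did edgeR without the pair (0.54 ± 0.10; adjusted p = 0.0407).

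The list of 20 insulin and growth factor signalling genes had 14 positive and a median of 0.03, or 17 and 0.05 without the pair. It held Irs2 and also Midn, whose role described above is another one, as its called members (0.0283% of all genes were called higher). The list was chosen with earlier results of these data known, so their count in it is no evidence on the pathway. The receptor genes were near 0, Insr at 0.01 ± 0.07 and Igf1r at 0.06 ± 0.10. Irs1, the paralogue of Irs2, was at -0.18 ± 0.10, and Foxo1, a factor that insulin signals hold in check and that drives Irs2 transcription, at 0.18 ± 0.11. Igfbp4, a binding protein of IGF, was at 0.20 ± 0.08 (edgeR adjusted p = 0.999).

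Transcripts of trapidil's targets and their pathway partners had medians near 0. Of 10 PDGF ligands, receptors and partners, 5 were positive, the median was 0.02 and values ran from -0.08 to 0.20. Pdgfrb, the receptor of pericytes, ran from 32.5 to 41.7 CPM at 7.5 mg/kg (median 37.9) and from 32.9 to 45.4 CPM at 15 mg/kg (median 37.3), with 0.03 ± 0.09. Of 19 phosphodiesterases 10 were positive, with a median of 0.01 and a range from -0.28 (Pde1a) to 0.14 (Pde3a). Pde10a, the striatal enzyme, ran from 569 to 838 CPM (median 681) and from 516 to 821 CPM (median 679), with 0.01 ± 0.14. Of 20 genes of protein kinase A and its anchors 14 were positive, with a median of 0.04. Without the pair the 3 medians were 0.05, -0.0084 and 0.02. In these 3 lists 0 genes passed with edgeR, DESeq2 or limma-voom, and 0 had an unadjusted edgeR p under 0.05. Over all genes edgeR called 0.0283% higher and 0% lower. At an unadjusted p under 0.05 it had 1.49% higher and 2.14% lower. With shares this small, a count of 0 in lists of this size sets them little apart from all genes.

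The dopamine receptors of the 2 output pathways also had values near 0. Drd1 ran from 174 to 265 CPM (median 223) and from 178 to 258 CPM (median 231), with 0.01 ± 0.11 (95% interval -0.21 to 0.23). Drd2 was at 443 to 559 CPM at 7.5 mg/kg and 408 to 542 CPM (median 489) at 15 mg/kg, with -0.05 ± 0.08 (-0.20 to 0.11). Penk, the enkephalin precursor of D2 neurons, was at -0.02 ± 0.11, and Tac1, the substance P precursor of D1 neurons, at 0.17 ± 0.09. Pdyn, the dynorphin precursor of D1 neurons that levodopa is known to raise in the lesioned striatum, ran from 156 to 516 CPM at 7.5 mg/kg (median 294) and from 180 to 295 CPM at 15 mg/kg (median 231). Its log2 fold change was -0.31 ± 0.17 (edgeR adjusted p = 0.999), 9 of 10 higher-dose animals lay below the lower-dose median, and the highest value was that of 7.5 mg/kg replicate 1. Without replicates 1 and 6 Pdyn was at -0.26 ± 0.15. The list of 14 dopamine genes had 7 positive and a median of 0.00, and 22 spiny projection neuron markers had 13 positive and a median of 0.01.

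No stress gene passed between the doses with edgeR or DESeq2; limma-voom called Cebpb, which the stress list shares with the immediate early list. Ppp1r15a, which encodes the phosphatase subunit GADD34 that reverses the eIF2α arm of the stress response, ran from 27.6 to 41.8 CPM (median 31.7) and from 29.8 to 38.5 CPM (median 32.3). Its log2 fold change was 0.01 ± 0.11 (95% interval -0.21 to 0.23). It lay below levodopa by about the same amount at both doses, -0.96 ± 0.12 and -0.95 ± 0.12. The integrated stress response list had 9 of 18 positive and a median of 0.00, and the 17 heat shock genes one of 0.0047, or -0.017 without the pair.

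On the lower side no gene passed with edgeR, and the 5 of smallest p are described as such. Bmp2, a ligand of the TGF-beta superfamily, ran from 11.3 to 16.6 CPM at 7.5 mg/kg (median 14.1) and from 8.52 to 13.4 CPM at 15 mg/kg (median 10.7), with -0.35 ± 0.09 (adjusted p = 0.460). Rad51ap1, which encodes a protein of DNA repair by homologous recombination, ran from 1.97 to 2.93 CPM (median 2.59) and from 1.27 to 2.27 CPM (median 1.74), with -0.51 ± 0.13 (adjusted p = 0.460). It was the 1 lower gene that limma-voom called (adjusted p = 0.0226). Aplnr, the apelin receptor, had means of 5.04, 3.23 and 2.19 CPM on levodopa, 7.5 and 15 mg/kg, and the step between the doses was -0.55 ± 0.15 (adjusted p = 0.647). Taf8, a subunit of TFIID, was at -0.21 ± 0.06 and Inpp5e, an inositol phosphatase of cilia, at -0.18 ± 0.05 (adjusted p = 0.657 each). For each of these 5 genes all 10 higher-dose animals lay below the lower-dose median. Smad7, an inhibitor of TGF-beta receptors named after its value was seen, was at -0.23 ± 0.07 with the same tally. All of these genes were picked from these same values, so the tallies are no further evidence. The share of all genes with such a tally was not counted.

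Among the trapidil libraries, several cell type lists had their extremes in the 2 low-dose animals that stood apart. All 18 mature oligodendrocyte genes tested had a negative log2 fold change, as did 51.2% of all genes, with a median of -0.27. Of the 18, 10 were lower at an unadjusted p under 0.05 (2.14% of all genes), and 0 passed. Mbp, which encodes myelin basic protein, ran from 3243 to 8073 CPM at 7.5 mg/kg (median 4536) and from 2806 to 6665 CPM at 15 mg/kg (median 3906), with -0.35 ± 0.17, and Mal was at -0.29 ± 0.11. The summed level of the list was 17477 and 16553 CPM in replicates 1 and 6, against a 7.5 mg/kg median of 10807 and a 15 mg/kg range of 7052 to 14778 (median 9171). On levodopa alone it ran from 11548.5 to 20876.5 CPM (median 14304.5). Without 7.5 mg/kg replicates 1 and 6 all 18 stayed negative, with a median of -0.11. Oligodendrocyte precursor genes went from 11 of 12 negative and -0.13 to 7 of 12 positive and 0.01.

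Ciliated ependymal markers had 13 of 13 positive and a median of 0.34, with 0 passing and 0 at an unadjusted p under 0.05 (1.49% of all genes were higher and 2.14% lower at this level). Their summed level was 41.8 and 28.7 CPM in replicates 1 and 6, at the low end of an arm that reached 166 CPM, against 64.4 to 142 CPM at 15 mg/kg. Without them the median was 0.09, with 11 of 13 positive. MHC class II genes (Cd74, RT1-Da and others) reversed. Their median was -0.85 with 5 of 5 negative in all libraries, and 0.43 with 5 of 5 positive without the pair. Cd74, the invariant chain, was at 110 and 132 CPM in replicates 1 and 6 and had a median of 15.0 CPM over the other 18. Microglial markers turned from 13 of 17 negative (median -0.05) to 13 of 17 positive (0.08). Striatal interneuron markers, with the smallest p for Lhx8 (0.26 ± 0.11), had 11 of 16 positive and a median of 0.11, or 0.09 without the pair.

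**Figure D3:**
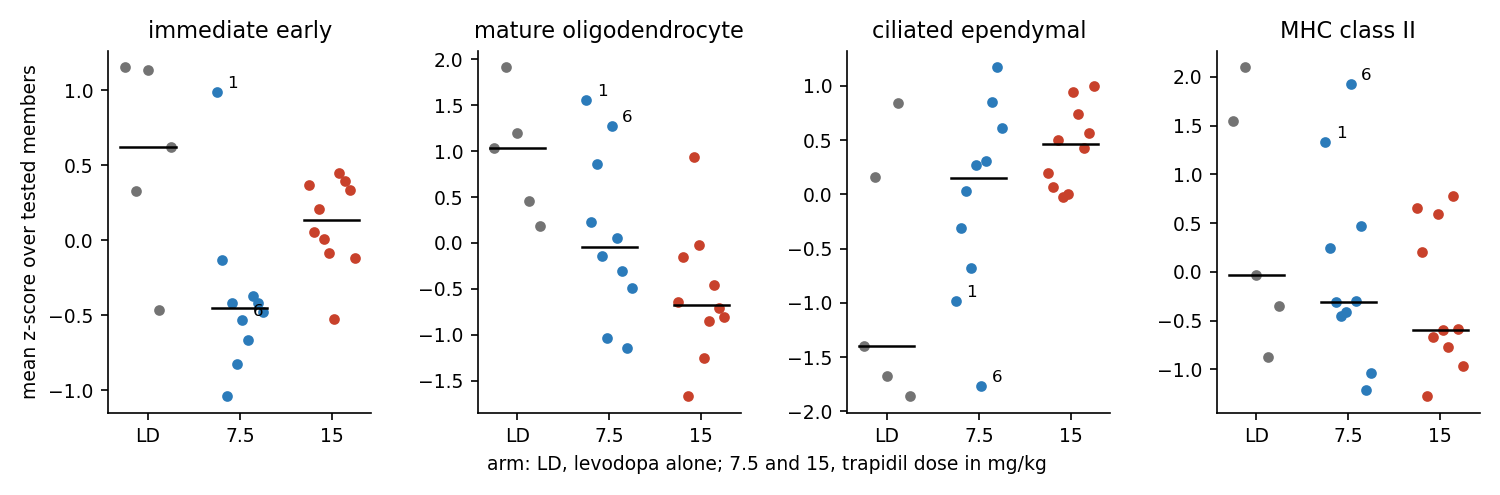
Score of 4 gene lists in each library (mean z-score of log2 CPM over the tested members, y axis) by arm (x axis), with the arm median as a line and 7.5 mg/kg replicates 1 and 6 numbered. These replicates hold the highest oligodendrocyte and MHC class II scores and the lowest ependymal scores of the 20 trapidil libraries, and replicate 1 the highest immediate early score. Levodopa libraries ran from -0.47 to 1.16 (immediate early), 0.19 to 1.91 (oligodendrocyte), -1.86 to 0.84 (ependymal) and -0.87 to 2.10 (MHC class II).

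Interferon-stimulated genes had 17 of 18 positive and a median of 0.22, led by Mx1, an antiviral GTPase, at 1.75 ± 0.63 (adjusted p = 0.999). The median moved with single animals of both arms. In 15 mg/kg replicate 1, Mx1 was at 18.7 CPM against at most 5.41 CPM in the other 19 libraries, and 15 of the 18 genes were highest there. The share of all genes highest in that library was not counted. The acute-phase gene Lcn2 was at 14.6 CPM in it and at most 1.17 CPM elsewhere. Without that animal 9 of 18 were positive and the median was 0.0053. Without 7.5 mg/kg replicates 1 and 6 it was 0.42, with 18 of 18 positive, and without replicate 6 alone 0.35. Cholesterol synthesis genes had 17 of 20 negative with a median of -0.08 (-0.04 without the pair of low-dose animals), and 36 glutamate and GABA receptor genes a median of 0.02.

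**Figure D4:**
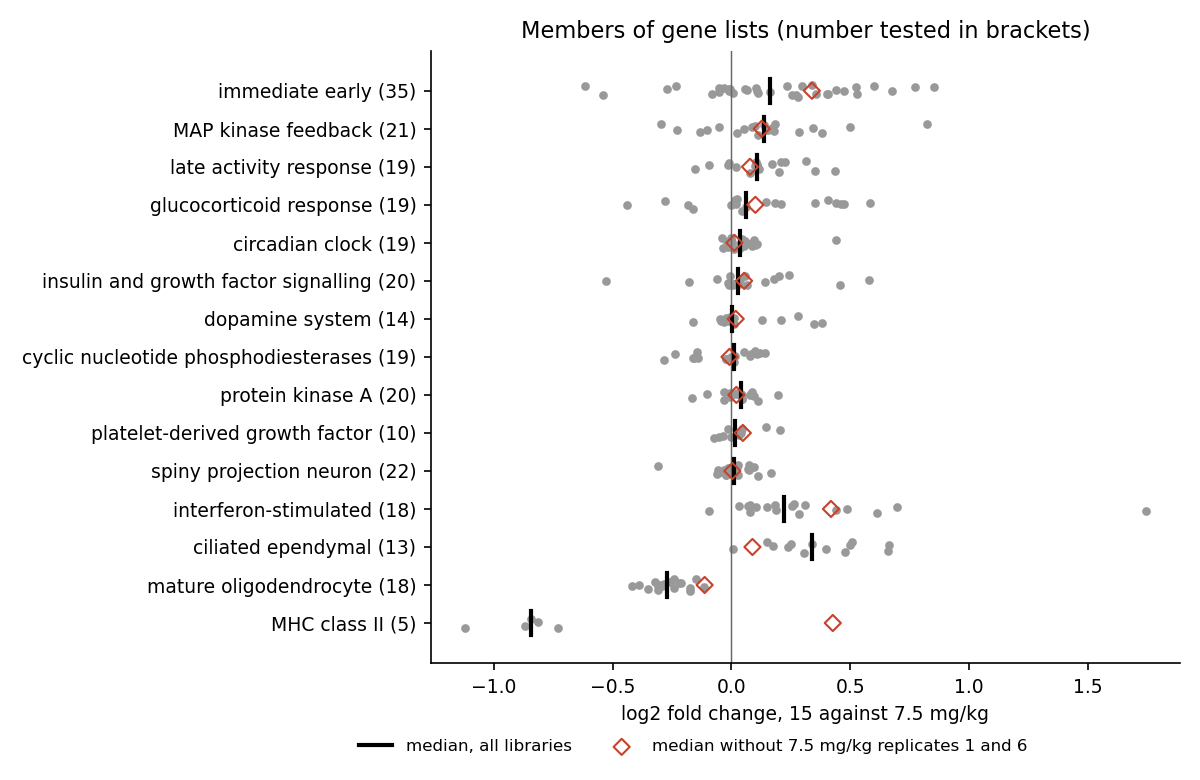
Log2 fold change of 15 against 7.5 mg/kg (x axis) of each tested member (grey) of 15 gene lists (y axis). The black line is the list median in all libraries and the red diamond the median without 7.5 mg/kg replicates 1 and 6, which moves the MHC class II median from -0.85 to 0.43 and the immediate early median from 0.16 to 0.34. The PDGF, phosphodiesterase, dopamine and spiny projection neuron medians stay near 0.

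The animals of the lower dose differed more among themselves than those of the higher dose. The SD of log2 CPM was larger at 7.5 mg/kg for 10412 of 14142 genes (73.6%), with a median of 0.198 against 0.151. Without replicates 1 and 6 it was larger for 7194 (50.9%), with a median of 0.152. The immediate early list had a median SD of 0.418 at 7.5 mg/kg, 0.277 at 15 mg/kg and 0.250 at 7.5 mg/kg without the pair. For Zfp189 the higher dose had the larger SD, 0.265 against 0.152.

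Under 37 other settings of the analysis, 25 of which left out 1 library each, Midn, Per1, Irs2 and Zfp189 were called in every one. Log2 fold changes stayed between 0.44 and 0.52 for Midn, 0.41 and 0.47 for Per1, 0.54 and 0.66 for Irs2, and 0.53 and 0.62 for Zfp189, and the largest adjusted p were 0.0066, 0.0313, 0.0174 and 0.0487. Fosb was called in 10 of the 37, from 0.78 to 0.93. A further set of genes, all but Nr4a1 named after their values were seen, was called in some settings only. Slc25a25, a mitochondrial ATP-Mg carrier (0.39 ± 0.08; edgeR adjusted p = 0.107), was called in 8. Tiparp, an ADP-ribosyltransferase (0.52 ± 0.13), and Sik1, a kinase induced by cyclic AMP (0.40 ± 0.10), were each called in 5. Nfkbia, the inhibitor of NF-kappaB (0.46 ± 0.11), and Nr4a1 were called in 4 and Dusp5 in 3. Leaving out 7.5 mg/kg replicate 1 raised the count of higher genes from 4 to 8, and leaving out replicates 1 and 6 raised it to 10.

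**Figure D5:**
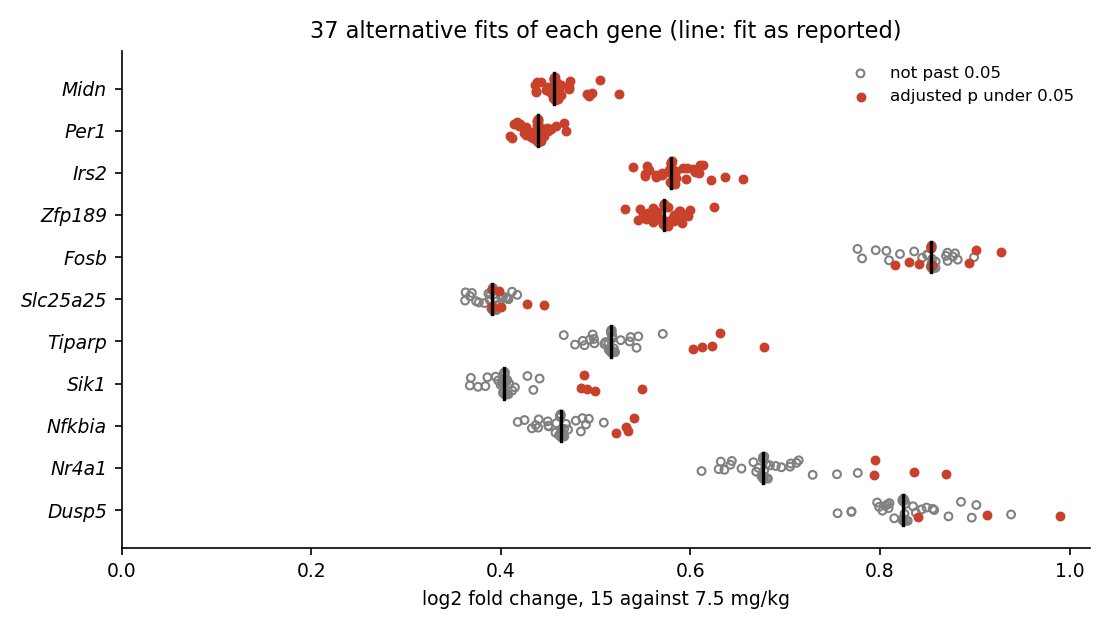
Log2 fold change (x axis) of 11 genes under 37 alternative settings (points, filled where adjusted p was under 0.05) with the reported value as a line. The 4 genes at the top are filled in every setting, Fosb in 10, and all points of all 11 genes lie above 0.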

How the data were processed

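Raw read counts per gene, as deposited by the authors, covered 28909 gene names in 25 libraries; 9462 names had a count of 0 throughout. Per the submitters' processing notes, the tools were FastQC, STAR and HTSeq and the build Rnor_6.0. Since versions, annotation and strand setting are not given in the sources used here, overlapping, antisense and near-identical genes are uncertain.

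Arms were read from the titles. Libraries were taken as separate animals, which the labels do not state library by library; otherwise p-values measure technical spread. No 2 libraries of an arm agreed within sampling noise (lowest chi-square per degree of freedom 4.92 at 7.5 and 4.83 at 15 mg/kg). No batch or date was given. Genes were kept by filterByExpr (14142), scaled by TMM and tested with edgeR 4.0.16 (glmQLFit and glmQLFTest, arm the only factor, all 25 libraries) in R 4.3.3, with Benjamini-Hochberg adjustment over all genes; every adjusted p is from it unless DESeq2 1.42.0 or limma 3.58.1 is named. The error beside a log2 fold change is its standard error, from the F statistic. Alternatives changed the scaling, filter, tool, threshold (0.1), covariates (list scores, 2 surrogate variables from sva 3.50.0, the replicate number) and libraries. The steps were tested on simulated data.

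Named genes were, per direction, up to 10 called genes of smallest p with a mean of at least 1 CPM, filled to 5 where fewer passed, called members of 32 lists, and a set of 16. Other names were chosen after their values were seen. A cortical marker counted in its list is not reported here by name. The members, lists and tests were chosen with earlier results of these data known. For promoters, only windows at the outer end of a gene were used (19622 of 33469).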

Additional observations from a re-analysis of the deposited data

Results flagged for a closer look

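Of 56 groups of 10 values examined (26 named genes, the library total and the mitochondrial share in each arm), 7 had a highest or lowest animal farther from the rest than Dixon's 95% limit, which about 1 in 20 groups exceed by chance. In 6 of them the animal was 7.5 mg/kg replicate 1. Its Arc was 596.871 CPM, the next highest of the arm 239.4. Its Fos was 63.1712 CPM (next 20.7), Dusp1 112.498 CPM (next 43.6), Dusp6 28.2391 CPM (next 19.5) and Nr4a1 240.399 CPM (next 144). The library of the same animal had the lowest total, 10838513 counts, the next lowest being 15498304. In the 15 mg/kg arm, replicate 6 had Penk at 2664.25 CPM, the next lowest being 4005 CPM.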

How the results depend on the processing

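Limma-voom gave 1 lower gene, where the other alternatives gave 0. The count of 4 higher genes became 12 with limma-voom, 14 with 4 region scores in the design, 10 with 2 surrogate variables and 10 without 7.5 mg/kg replicates 1 and 6. Leaving out 1 library gave 4 to 8, the 8 without 7.5 mg/kg replicate 1. With the replicate number as a block in the 20 trapidil libraries alone it was 8, and in those libraries without the block 6. The numbers share no source the labels name: same-numbered libraries correlated at -0.223 to 0.14 and 0 of 10 correlated best with their own number. Signs turned for genes near 0. Arc was 0.36 with limma-voom, 0.19 with the block, 0.19 with the cortical score, 0.39 with 4 region scores, 0.29 with surrogate variables and 0.32 without replicates 1 and 6. Drd1 was -0.015, -0.026 and -0.037 with limma-voom, surrogate variables and without that pair; Drd2 was 0.026 with 4 region scores, Penk 0.014 with surrogate variables and Pde10a -0.0064 without the pair. Leaving out 1 library gave -0.12 to 0.35 for Arc, -0.0078 to 0.60 for Fos, -0.018 to 0.050 for Ppp1r15a, -0.026 to 0.045 for Drd1, -0.063 to 0.039 for Penk and -0.023 to 0.048 for Pde10a. The cause was not tested. The fits without 1 levodopa library and the list medians without 1 library were chosen after seeing the data. Genes at a few CPM have wide intervals at these depths.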
